A study of Mus musculus with 24 samples.

Results

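Expression of 45 genes of the smooth muscle contractile apparatus and its cytoskeleton was followed in mouse embryos with and without Prdm6 in neural crest cells, in the ductus arteriosus (DA) and in the ascending aorta. The DA is the fetal artery that carries blood from the pulmonary artery to the aorta and constricts after birth. Prdm6 encodes a PR-domain protein of smooth muscle cells (SMCs). The 45 members were taken by symbol from a table of 54752 genes, and all 45 were among the 16463 genes that had enough counts to be tested. Prdm6-deficient embryos had the genotype Wnt1Cre;PRDM6f/f, in which the Wnt1 promoter drives Cre in the neural crest lineage, and gave 5 DA and 5 aorta libraries. Control DA libraries (n = 7) came from 5 PRDM6wt/f embryos, 1 PRDM6wt/wt embryo and 1 Wnt1Cre;PRDM6wt/wt embryo. Control aorta libraries (n = 6) came from 5 PRDM6wt/f embryos and 1 Wnt1Cre;PRDM6wt/wt embryo. The embryos, on a C57/Black6 background, were collected at E18.5, shortly before birth and before the DA closes. Because all of the deficient libraries and only 2 of the control libraries carried Wnt1Cre, loss of Prdm6 and presence of Cre cannot be told apart in most of these samples. Cells outside the neural crest lineage kept their Prdm6, and 2 of the Prdm6-deficient DA libraries (replicates 1 and 2) were pools of 2 embryos each.

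SMCs shorten when myosin filaments pull on actin filaments. Calcium bound to calmodulin activates myosin light chain kinase, the kinase phosphorylates the regulatory light chain, and the smooth muscle myosin heavy chain then cycles along filaments of smooth muscle actin. Calponin, caldesmon, transgelin, smoothelin and the tropomyosins sit along those thin filaments, dense bodies rich in actinin anchor them, and intermediate filaments of desmin, vimentin and synemin join the dense bodies to each other and to the cell border. Many of these genes are known targets of serum response factor (SRF), which binds a short sequence called the CArG box and works with myocardin and the myocardin-related factors. Contractile SMCs are known for high levels of the smooth muscle forms of these proteins, and less mature SMCs for the forms that most cells use.

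Total counts ran from 15163931 to 22610501 per library, so that 3 counts corresponded to 0.133 to 0.198 CPM (counts scaled to a fixed total per library). Reads of Prdm6 itself were 108 ± 16.3 CPM (SD, n = 7) in the DA of controls, and 72.7 ± 8.5 CPM (SD, n = 5) in Prdm6-deficient DA, a log2 difference of -0.57 ± 0.11 (SE, adjusted p = 5.5e-04). In the aorta the corresponding levels were 113 ± 16.2 CPM (SD, n = 6) and 70.3 ± 6.95 CPM (SD, n = 5) (log2 difference -0.69 ± 0.11, adjusted p = 1.7e-04). Reads from outside the deleted segment and from cells without Cre count here too. Levels are in CPM after scaling of library sizes, adjusted p values come from edgeR's quasi-likelihood test with Benjamini-Hochberg adjustment over all 16463 genes, and a gene was called changed at an adjusted p below 0.01 and a log2 difference beyond 0.5. The 45 members together took 4.97% ± 0.732 (SD, n = 7) of all counts in control DA, 3.53% ± 0.161 (n = 5) in Prdm6-deficient DA, 3.54% ± 0.29 (n = 6) in control aorta and 3.45% ± 0.15 (n = 5) in Prdm6-deficient aorta. The lowest share among the control DA libraries (4.16%) lay above the highest of every other group, where the maxima were 3.68% in Prdm6-deficient DA, 4.01% in control aorta and 3.62% in Prdm6-deficient aorta.

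Levels per kilobase of exon spanned more than 3 orders of magnitude in control DA. The length used was that of all annotated exons of a gene merged, not of the transcripts expressed. Comparison between genes is therefore rough, and genes with much annotated exon come out low. Tagln, which encodes the actin-bundling protein transgelin, was highest at 3429.5 CPM per kilobase, followed by the smooth muscle actin gene Acta2 at 3050.1, the regulatory light chain gene Myl9 at 1701, Csrp1 at 1046 and the enteric smooth muscle actin gene Actg2 at 875. The lowest members in control DA were Synm at 2.43, Pcp4 at 1.81 and Sorbs2 at 1.38 CPM per kilobase. Before division by length, Sorbs2 had more CPM than Pcp4 in every control DA library. Tagln and Acta2 also led in the other groups, at 2174 and 2157 in Prdm6-deficient DA, 2057 and 2116 in control aorta, and 2206 and 1943 in Prdm6-deficient aorta. The 2 differed by less than the SD between libraries in every group but Prdm6-deficient aorta. Actg2 ranked the fifth in control DA but stood at 167 CPM per kilobase in Prdm6-deficient DA, 146 in control aorta and 138 in Prdm6-deficient aorta. Cells that express these genes and RNA per cell cannot be told apart in bulk tissue, so that every difference given here may be of cell number, of RNA per cell or of both.

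Promoter sequences were available in the RefSeq table (GRCm38.p6) for 39 of the 45 members (not Actg2, Csrp2, Myh11, Nexn, Svil or Tagln), and the 250 bases before each transcription start were searched for the CArG box, whose pattern reads the same on both strands. A perfect match occurred in 6 members (15.4%: Cnn2, Fhl1, Fhl2, Ldb3, Myl6 and Myl9), compared with 1.62% of 27025 genes. With 1 mismatch allowed, 17 members (43.6%) and 21.1% of all genes held at least 1 match. Of the members that fell in Prdm6-deficient DA, 6 of 16 with a promoter held such a match (37.5%), against 11 of 23 of the other members (47.8%). Another 4 that fell (Actg2, Myh11, Svil and Tagln) could not be searched. The 16 had 19 promoters and the 23 had 34, so that the other members had more sequence in which to match. Counted by promoter the shares were 31.6% and 41.2%. A match is a description of the letters in this window, and its absence says only that they are not in these 250 bases. The 4 promoters printed here show the range met among the members, each written 5′ to 3′ along its gene and ending at the last base before the start, with CArG matches in capitals. Acta2 (chr19:34255374-34255623, minus strand) and Myl9 (chr2:156775214-156775463, plus strand) hold 2 matches each (RefSeq starts can differ from the gene bounds printed for genes elsewhere, which are those of GENCODE), whose first bases lie 84 and 34 bases before the start in Acta2 and 161 and 99 in Myl9. Cnn2 (chr10:79988350-79988599, plus strand) holds a perfect match 56 bases before the start and was not called changed in Prdm6-deficient DA. Des (chr1:75360042-75360291, plus strand), the member with the largest drop in Prdm6-deficient DA, holds none.
Acta2: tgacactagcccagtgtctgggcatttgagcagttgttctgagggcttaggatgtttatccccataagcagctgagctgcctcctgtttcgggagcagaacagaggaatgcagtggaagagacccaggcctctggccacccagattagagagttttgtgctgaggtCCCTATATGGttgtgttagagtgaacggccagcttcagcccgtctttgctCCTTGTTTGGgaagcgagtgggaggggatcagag
Myl9: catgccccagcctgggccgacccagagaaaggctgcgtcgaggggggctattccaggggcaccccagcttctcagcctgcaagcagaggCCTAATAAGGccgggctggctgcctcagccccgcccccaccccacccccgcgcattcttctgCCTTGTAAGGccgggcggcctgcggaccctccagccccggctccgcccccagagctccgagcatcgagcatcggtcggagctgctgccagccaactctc
Cnn2: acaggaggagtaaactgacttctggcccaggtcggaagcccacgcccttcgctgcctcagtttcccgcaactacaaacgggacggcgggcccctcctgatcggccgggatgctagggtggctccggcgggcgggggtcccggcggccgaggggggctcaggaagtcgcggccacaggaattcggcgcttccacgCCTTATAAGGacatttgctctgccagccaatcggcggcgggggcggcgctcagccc
Des: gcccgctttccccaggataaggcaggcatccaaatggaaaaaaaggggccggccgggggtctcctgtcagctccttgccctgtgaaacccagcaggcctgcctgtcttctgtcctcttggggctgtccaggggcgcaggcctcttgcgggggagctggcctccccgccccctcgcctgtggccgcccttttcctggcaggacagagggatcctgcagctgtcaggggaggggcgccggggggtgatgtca

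The comparison of Prdm6-deficient with control DA asked which parts of the contractile program depended on Prdm6 in the vessel that must constrict. Of the 45 members, 20 fell and 2 rose, while 2.82% of all genes tested fell and 2.61% rose (5.43% in either direction). The median log2 difference was -0.36 over the members and 0.01 over all genes. In 21 members the Prdm6-deficient and control values did not overlap, which held for 5.66% of all genes. The largest drops were those of the desmin gene Des, the actin gene Actg2, the myosin heavy chain gene Myh11, Tes, Synm and the calponin gene Cnn1, and the members that rose were Sorbs2 and Pdlim5. A further 7 members passed the adjusted p but not the fold limit (6.8% of all genes passed that p at any fold): Acta2, Dstn and Pdlim7 were lower, and Myh10, Csrp2, Fhl1 and Cav1 were higher. The other 16 members passed neither. Embryo numbers in the labels fall into 2 runs. Within the first (2 control and 3 deficient DA libraries) 7 members were called lower and 1 higher. Over all 18311 genes of that fit 114 were called lower and 87 higher. Within the second (5 and 2 libraries) 15 members were lower and 0 higher, against 244 and 175 of 17701 genes. With the run as a term in the fit 19 members were lower and 3 higher, against 439 and 377 of 16463 genes. The main fit called 465 genes lower and 429 higher, so that fewer were called within a run over all genes too. Log2 differences within the 2 runs were -4.57 and -3.37 for Des, -2.41 and -2.48 for Actg2, -1.80 and -2.21 for Myh11, -0.92 and -1.26 for Mylk and -0.70 and -0.98 for Smtn.

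Of the actin genes, Actg2 (chr6:83512905-83536265) fell and Acta2 (chr19:34241090-34255590) did not reach the fold limit. Actg2 stood at 964 (lowest), 1284 (median) and 1959 (highest) CPM over the control DA libraries, and at 262, 241, 283, 279 and 233 CPM in the Prdm6-deficient DA libraries. Every deficient library was low and close to the others, far under the lowest control. The fall was to 19.1% of the control level (log2 difference -2.39 ± 0.19 SE, adjusted p = 2.6e-09). For Acta2, the actin that vascular SMCs make most of, the levels were 6698 ± 1403 CPM (SD, n = 7) and 4737 ± 298 CPM (SD, n = 5), a log2 difference of -0.50 ± 0.11 (adjusted p = 0.00351), and control replicates 1 and 2 (4915 and 5029 CPM) overlapped the deficient range of 4415 to 5149. Its difference lay at the fold limit itself and was past it with DESeq2, with RLE scaling and with library size alone.

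Myh11 (chr16:14194535-14291372), which encodes the heavy chain particular to smooth muscle myosin, had control DA values of 1415 (lowest), 1902 (median) and 2870.2 (highest) CPM and Prdm6-deficient DA values of 576, 384, 677, 594 and 461 CPM. The highest deficient library was under the lowest control, and control replicates 3 and 5 stood above the other controls. Myh11 thus fell to 26.9% of control (log2 difference -1.90 ± 0.20, adjusted p = 1.9e-07). The nonmuscle heavy chains did not fall with it: Myh10 was at 641 ± 87.6 CPM in controls and 888 ± 69.5 CPM in Prdm6-deficient DA (log2 difference 0.47 ± 0.09, adjusted p = 3.9e-04), under the fold limit. Myh9 was at 459 ± 48.7 and 489.7 ± 82.2 CPM (adjusted p = 0.605). Control replicates 3 and 5 held the 2 highest control DA values of 17 of the 45 members, among them Acta2, Actg2, Myh11, Cnn1, Des and Smtn. Replicate 3 was the PRDM6wt/wt embryo without Cre and replicate 5 a PRDM6wt/f embryo. Replicate 2, the only control DA library with Wnt1Cre, had the lowest share of counts in the members (4.16%). It held the lowest control DA value of Des, Actg2, Myh11, Cnn1, Tpm1, Tpm2, Smtn, Synpo2 and Csrp1, above every Prdm6-deficient DA library. For Mylk, Tes and Synm the lowest control was another library. The part of Cre in these levels was not tested.

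Mylk (chr16:34745210-35002420), the gene of myosin light chain kinase, was measured at 417 (lowest), 484 (median) and 754 (highest) CPM in control DA. Prdm6-deficient DA had 285, 222, 379, 284 and 222 CPM, all under the control range. The level fell to 50.5% of control (log2 difference -0.99 ± 0.15, adjusted p = 3.4e-05). The study lists this gene as MLCK/telokin, and counts per gene do not separate the kinase from telokin. The substrate of that kinase is encoded by Myl9, which fell from 1976 ± 406 CPM (SD, n = 7) to 1320.3 ± 86.9 CPM (SD, n = 5), a log2 difference of -0.58 ± 0.10 (adjusted p = 2.8e-04). Myl6, the gene of the essential light chain that smooth and nonmuscle myosin share, was at 2312 ± 359 and 2081 ± 115 CPM and was not called (log2 difference -0.15 ± 0.09, adjusted p = 0.315).

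Among the 13 regulators of the thin filament, 7 fell and none rose. Cnn1 (chr9:22099216-22109630), the gene of the smooth muscle calponin, an inhibitor of actomyosin, stood at 979.8 (lowest), 1421 (median) and 1953 (highest) CPM over the DA controls, and at 502, 411, 464, 471 and 458 CPM in Prdm6-deficient DA. The deficient values lay close together and well under the lowest control. Cnn1 fell to 31.8% of control (log2 difference -1.65 ± 0.13, adjusted p = 2.6e-09). The calponin relatives that many cell types express differed less: Cnn3 fell by 0.54 on the log2 scale (adjusted p = 3.8e-06), and Cnn2 had a log2 difference of -0.25 that was not called (adjusted p = 0.0512).

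Tropomyosins lie in the groove of the actin filament and set where myosin can bind. Tpm2 (chr4:43514711-43523765) stood at 1169.5 (lowest), 1593 (median) and 2109 (highest) CPM over the DA controls, and at 702, 651, 712, 643 and 642 CPM in Prdm6-deficient DA. No deficient library came near the lowest control. It fell to 41.9% of control (log2 difference -1.26 ± 0.12, adjusted p = 5.4e-08). Tpm1 (chr9:67022590-67049406) had control values of 1599 (lowest), 2142 (median) and 2719 (highest) CPM, and the deficient libraries had 1311, 1139, 1329, 1211 and 1176 CPM. The groups again did not overlap. Tpm1 fell to 56.4% of control (log2 difference -0.83 ± 0.10, adjusted p = 1.6e-06). Tpm3 and Tpm4, which are expressed in most cells, were not called, with log2 differences of 0.02 and -0.23 (adjusted p = 0.869 and 0.0177). Part of their sequence occurs in another gene as well, 15.8% of the 100-base windows of Tpm3 (in Tpm3-rs7) and 7.37% of those of Tpm4 (in Gm7809), so that their reads could have been split between copies.

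Smtn (chr11:3517523-3540612), which encodes smoothelin, a marker of contractile SMCs, had 423 (lowest), 599.6 (median) and 775 (highest) CPM in the DA of controls and 347, 301, 411, 349.9 and 285 CPM in Prdm6-deficient DA. The highest deficient value lay just under the lowest control value. Smtn fell to 57.9% of control (log2 difference -0.79 ± 0.14, adjusted p = 1.5e-04). Tagln fell from 6818 ± 1446 CPM (SD, n = 7) to 4321 ± 361 CPM (SD, n = 5) (log2 difference -0.66 ± 0.11, adjusted p = 1.2e-04), while Tagln2, its relative outside muscle, was at 496 ± 66.6 and 452 ± 29.9 CPM (adjusted p = 0.351). Lmod1, whose product nucleates actin filaments, fell by 0.63 on the log2 scale (adjusted p = 7.0e-04), although Prdm6-deficient replicate 1 (296 CPM) lay above control replicates 1 and 2 (289 and 294 CPM). The caldesmon gene Cald1 was at 1003 ± 138 and 906 ± 93.1 CPM and was not called (adjusted p = 0.383). Dstn, which encodes the actin-severing protein destrin, was lower by less than the fold limit (log2 difference -0.35 ± 0.08, adjusted p = 0.00421).

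The intermediate filament genes were split. Des (chr1:75360329-75368579), the muscle intermediate filament gene, ranged over 265 (lowest), 399 (median) and 646 (highest) CPM in control DA, whereas the Prdm6-deficient DA libraries had 21, 35.7, 14.7, 17.6 and 53 CPM. The highest deficient library, replicate 7, was still far under the lowest control. Des fell to 6.32% of control, 15.8-fold, the largest change of the 45 members in this comparison (log2 difference -3.98 ± 0.32, adjusted p = 2.4e-09). Synm (chr7:67730160-67759742), whose product synemin co-assembles with desmin, was scarce, at 7.15 (lowest), 20.8 (median) and 27.1 (highest) CPM in the DA of controls and 2.68, 3.46, 7.83, 6.5 and 9.67 CPM in Prdm6-deficient DA. Control replicate 4 (7.15 CPM) lay within the deficient range, and the other controls lay above it. Synm fell to 31.3% of control (log2 difference -1.67 ± 0.30, adjusted p = 2.5e-04). The gene bounds of Synm overlap those of Ttc23 on the opposite strand, which had 304% of the counts of Synm. Overlap of their exons was not examined. The sources used here do not say whether strand was used in counting, so that the Synm values are uncertain. Vim, the vimentin gene of mesenchymal cells, was at 2968 ± 243 and 3122 ± 246 CPM (log2 difference 0.07 ± 0.08, adjusted p = 0.669).

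Of the 10 crosslinkers and scaffold genes of dense bodies and adhesions, 6 fell and 1 rose. Tes (chr6:17065149-17105828) encodes testin, a LIM protein of focal adhesions, and had 38.7 (lowest), 48.6 (median) and 85.5 (highest) CPM in the DA of controls and 18.7, 13.6, 20.5, 18.3 and 11.2 CPM in Prdm6-deficient DA. The 2 ranges were well separated. It fell to 29.7% of control (log2 difference -1.75 ± 0.22, adjusted p = 1.9e-06). Synpo2 (chr3:123076519-123236149), which encodes the actin-bundling protein myopodin, had control values of 217 (lowest), 303 (median) and 405 (highest) CPM, against 122, 119, 98.5, 111 and 119 CPM in Prdm6-deficient DA. All deficient libraries were similar and low. The drop was to 36% of control (log2 difference -1.47 ± 0.15, adjusted p = 9.2e-08).

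Pgm5 (aciculin, a protein of muscle adhesions), Svil (supervillin, which links actin to the membrane), Flna (filamin A) and Palld (palladin) also fell, by 0.70, 0.63, 0.54 and 0.52 on the log2 scale, with adjusted p of 0.00203, 1.7e-04, 0.00126 and 0.00734. Pgm5 was not called with only the 2 DA groups in the fit (adjusted p = 0.0118), and without the pooled libraries Pgm5, Flna and Palld were not called (adjusted p = 0.0132, 0.0187 and 0.0307), which left 17 members lower. Over all 17369 genes of the fit without pools 351 were called lower. Palld passed in only 14 of the 23 fits with 1 library omitted, where its log2 difference ran from -0.58 to -0.46. Sorbs2 (chr8:45507788-45827906), a scaffold gene of stress fibres and Z-discs, rose from 38.4 ± 4.17 CPM (SD, n = 7) to 60.5 ± 4.95 CPM (SD, n = 5), a log2 difference of 0.66 ± 0.13 (adjusted p = 0.00103), with no overlap between the groups. Actn1, Actn4 and Nexn were not called, with log2 differences of -0.30, 0.05 and -0.14 (adjusted p = 0.0733, 0.832 and 0.427).

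Of the 8 LIM and PDZ-LIM genes, whose products bind actinin and actin, 1 fell and 1 rose. Csrp1 (chr1:135720061-135752232) stood at 1592 (lowest), 1992 (median) and 2649 (highest) CPM over the DA controls, and at 1153, 1102, 1219, 1178 and 924 CPM in Prdm6-deficient DA. The groups did not overlap. Csrp1 fell to 54.5% of control (log2 difference -0.88 ± 0.10, adjusted p = 5.9e-07). Its relative Csrp2 had 622 ± 101 CPM in controls and 854 ± 61.5 CPM in Prdm6-deficient DA, again without overlap, and a log2 difference of 0.46 ± 0.09 short of the fold limit (adjusted p = 6.8e-04). Pdlim5 rose from 99.8 ± 15.5 CPM (SD, n = 7) to 151 ± 8.97 CPM (SD, n = 5) (log2 difference 0.59 ± 0.11, adjusted p = 2.9e-04). Fhl1 and Pdlim7 passed the adjusted p alone, with log2 differences of 0.33 and -0.36 (adjusted p = 0.00207 and 0.00727), and Pdlim3, Ldb3 and Fhl2 passed neither limit, at 0.19, 0.22 and -0.29. For the genes of caveolae, the membrane pits of SMCs, Cav1 had a log2 difference of 0.50 ± 0.12 (adjusted p = 0.00550), just short of the fold limit, and Cavin1 of 0.00. The calmodulin regulator gene Pcp4 was scarce, at 1.85 ± 0.723 and 1.24 ± 0.833 CPM, and was not called (adjusted p = 0.554).

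**Figure D1:**
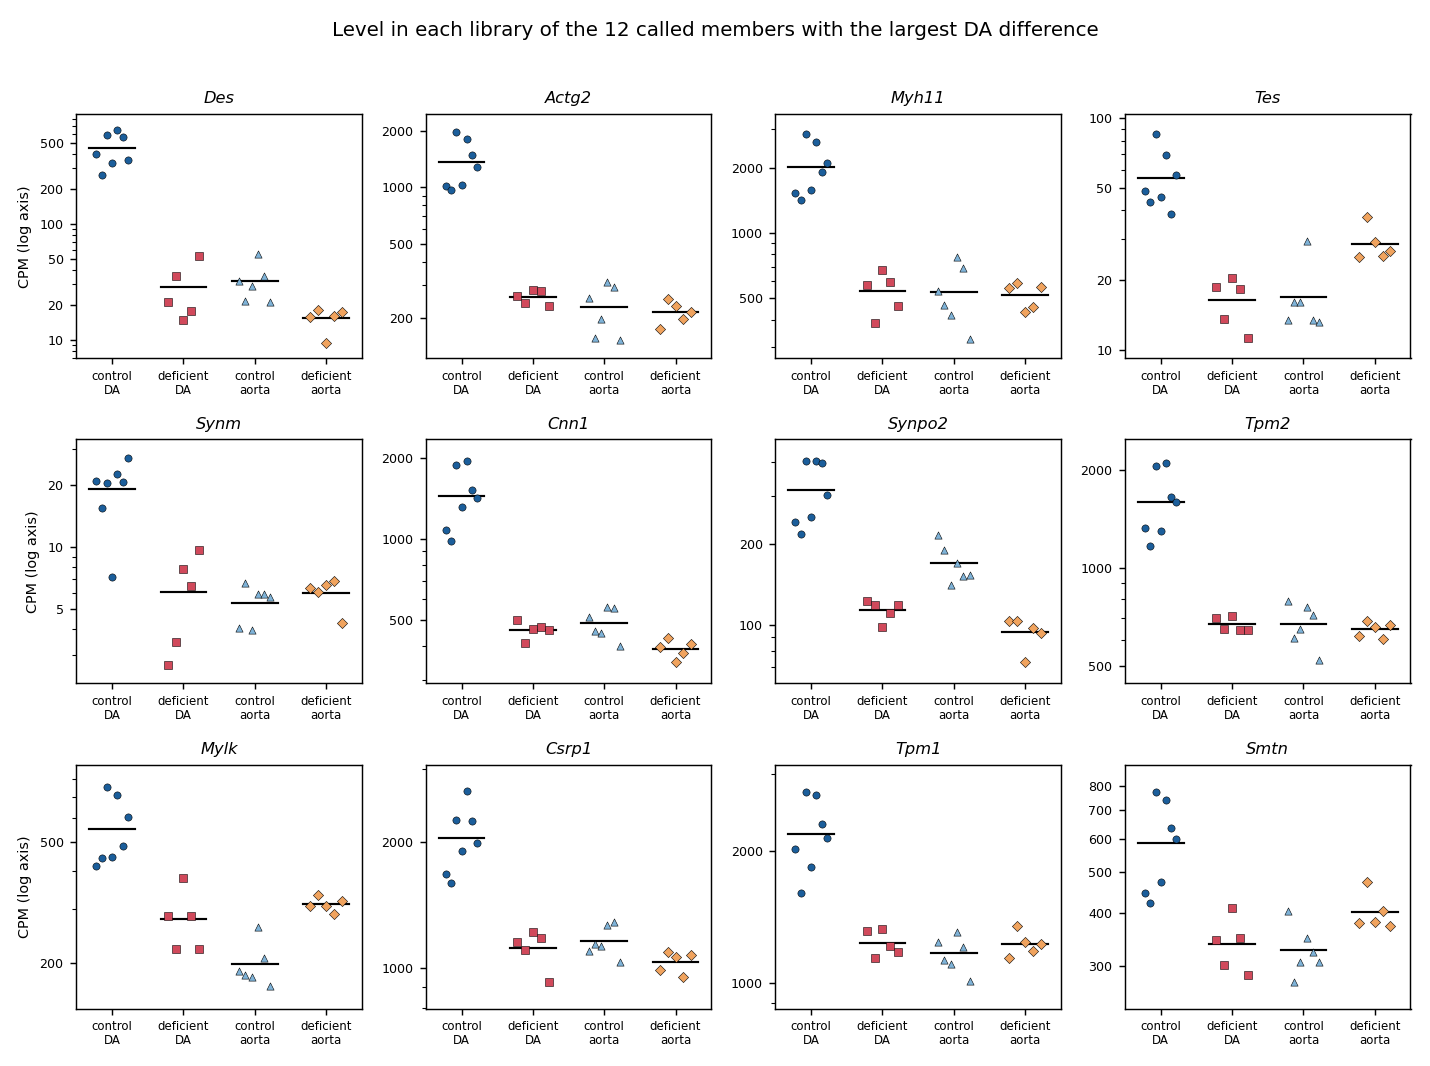
Level in each library (points; CPM, log axis) of the 12 members with the largest change between Prdm6-deficient and control DA, by group, with a black line at each group mean. The 7 control DA libraries stand above the 5 Prdm6-deficient DA libraries for every gene but Synm, where 1 control library lies within the deficient range.

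Other tissue was present in these microdissected vessels and varied between libraries. The summed level of 11 cardiac muscle markers was 118 to 1581 CPM in control DA, with the maximum in replicate 1 and the next library at 276, and 122 to 713 CPM in Prdm6-deficient DA, and none of the 11 was called. The sum of 8 skeletal muscle markers was 49.4 to 248 CPM (median 76.1) in control DA and 21.9 to 57.4 CPM (median 29.6) in Prdm6-deficient DA. Of those markers Myog was at 3 counts or fewer in every DA library and Ckm was called lower in Prdm6-deficient DA. Des, which heart and skeletal muscle also express, was at 399 CPM in control replicate 1, between the other controls. Without the 2 DA libraries highest in cardiac markers (control replicate 1 and Prdm6-deficient replicate 7), 20 members were called lower and 2 higher. Palld was no longer among them (adjusted p = 0.0145) and Acta2 was (log2 difference -0.55, adjusted p = 0.00247). The sum of 6 melanocyte markers was 32.2 to 229 CPM in the DA of controls and 2.44 to 4.96 CPM in Prdm6-deficient DA, where Dct, Tyrp1 and Tyr were at 3 counts or fewer in every library, and 4 of the 6 were called lower. Of the 4 adipocyte markers, 2 were called lower, and their sum reached 54.9 CPM in the DA of controls and 0.852 CPM in Prdm6-deficient DA. Of 6 markers that pericytes and SMCs share, Notch3 and Pdgfrb were called higher and Mcam lower, with sums of 6752 to 12327 CPM in controls and 4780.3 to 8791 CPM in deficient DA. Of 6 fibroblast markers, Lum rose from 178 to 483 CPM. Of 4 cartilage markers, Acan rose from 85.6 to 261 CPM (log2 difference 1.61, adjusted p = 6.7e-05). Col9a1 and Col2a1 were lower but not called (log2 differences -0.76 and -0.59), and Matn1 was at 3 counts or fewer in every DA library. The neuronal marker Elavl4 rose from 1.39 to 7.58 CPM (log2 difference 2.43, adjusted p = 5.2e-05). Haemoglobin and other erythroid markers summed to 137612 CPM in Prdm6-deficient replicate 1, with the next deficient library at 36148, and without the 2 libraries highest in them 21 members were called lower and 2 higher. The part of cardiac and skeletal muscle in the level of Des was not tested. Nor was that of the muscle, pericyte, melanocyte, adipocyte, fibroblast, cartilage and neuronal markers in the result as a whole.

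In the aorta the same deletion was set against its own controls. Of the 45 members, 4 rose and 2 fell, compared with 1.63% and 0.826% of all genes (2.45% in either direction), and the median log2 difference over the members was -0.04. Values of the 2 aorta groups did not overlap in 11 members (6.95% of all genes). The members that rose were Mylk, the actinin gene Actn4, Palld and Sorbs2, and those that fell were Vim and Synpo2. Myh11, Actg2, Tpm1, Tpm2, Tagln and Myl9, all of which fell in the DA, had log2 differences between -0.09 (Actg2) and 0.10 (Tagln) in the aorta, and none was called. Some others that fell in the DA differed more in the aorta, also without a call. Cnn1 ran from 402 to 562 CPM in control and from 349 to 431 CPM in Prdm6-deficient aorta, and Smtn from 276 to 406 and from 373 to 474 CPM.

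Mylk in control aorta was at 188, 183, 180.1, 263, 207 and 168 CPM, and in Prdm6-deficient aorta at 309, 335, 307, 289 and 319.9 CPM. The deficient libraries were all above the highest control, a rise of 1.57-fold (log2 difference 0.65 ± 0.15, adjusted p = 0.00759). That call was held in 13 of the 23 fits with 1 library omitted (adjusted p up to 0.0243). Palld rose from 66.3 ± 15.9 CPM (SD, n = 6) to 101 ± 10.4 CPM (SD, n = 5) (log2 difference 0.60 ± 0.13, adjusted p = 0.00539), and was called in 15 of those 23 fits (adjusted p up to 0.0263). Actn4, which crosslinks actin at the cell border, rose 1.66-fold, from 403 ± 48.2 to 669.6 ± 42.9 CPM (adjusted p = 5.3e-05). Sorbs2 rose 2.09-fold, from 36.8 ± 10.6 to 77.1 ± 10.3 CPM (log2 difference 1.07 ± 0.14, adjusted p = 6.8e-06). It was the only member called higher in both vessels.

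Vim stood at 5151, 4176, 4651, 4006, 3934 and 3488 CPM in control aorta and at 2784, 2253, 2302, 2426 and 2322 CPM in Prdm6-deficient aorta. The groups were clearly apart, and Vim fell to 57.1% of control (log2 difference -0.81 ± 0.09, adjusted p = 4.7e-07). Synpo2 fell to 55.4% of control, from 170.0 ± 28.1 to 94.1 ± 12.6 CPM (log2 difference -0.85 ± 0.15, adjusted p = 4.8e-04), and was the only member called lower in both vessels. Tagln2 passed the adjusted p alone, as 2.88% of all genes did with or without the fold (log2 difference -0.48 ± 0.09, adjusted p = 6.1e-04). Des had 32, 21.7, 28.9, 54.9, 35.8 and 21.3 CPM in control aorta and 15.6, 18.2, 9.42, 16.2 and 17.3 CPM in Prdm6-deficient aorta. These did not overlap, but the log2 difference of -1.08 ± 0.30 was not called (adjusted p = 0.0291). Pcp4 (log2 difference -2.01 ± 0.55, adjusted p = 0.0280) and Tes (0.76 ± 0.21, adjusted p = 0.0329) were not called either. With only the 2 aorta groups in the fit, Des and Pcp4 were called lower too (adjusted p = 0.00369 and 0.00568). DESeq2, fitted on all groups, called Pcp4 lower (adjusted p = 0.00197) and Tes higher (adjusted p = 0.00931). Of 6 endothelial markers, 3 were called higher in Prdm6-deficient aorta, with sums of 510.2 to 847 CPM in controls and 803 to 1077 CPM in deficient libraries. Of the markers of pericytes and SMCs, Rgs5 rose from 1623 to 5290.3 CPM (log2 difference 1.70, adjusted p = 1.4e-06) and Itga8 fell (log2 difference -1.11, adjusted p = 1.0e-05). Of 6 fibroblast markers only Lum was called, and it rose (log2 difference 1.61, adjusted p = 8.6e-06). Dpt, Col1a1 and Dcn were lower without a call (log2 differences -1.01, -0.36 and -0.30), and Pdgfra and Pi16 had 0.38 and 0.01. The neuronal marker Elavl4 rose (log2 difference 3.01, adjusted p = 6.6e-06). The part of these cells in the result was not tested.

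Whether the difference made by Prdm6 was itself unlike in the 2 vessels was tested as an interaction term, the log2 difference in the DA minus that in the aorta. It was called (adjusted p below 0.01, no fold limit) for 20 of the 45 members, 16 of them lower and 4 higher in the DA, while 1.69% and 0.954% of all genes were called lower and higher (2.65% in all). The lower members were Des, Tes, Actg2, Myh11, Synm, Mylk, Cnn1, Tpm2, Palld, Smtn, Pgm5, Tpm1, Tagln, Csrp1, Actn4 and Myl9. The interaction was -2.90 ± 0.41 (SE) for Des (adjusted p = 4.4e-05), -2.51 ± 0.30 for Tes (adjusted p = 6.2e-06), -2.30 ± 0.26 for Actg2 (adjusted p = 2.6e-06) and -1.85 ± 0.28 for Myh11 (adjusted p = 7.8e-05). Mylk and Palld were called in opposite directions, lower in the Prdm6-deficient DA and higher in the Prdm6-deficient aorta, with interactions of -1.64 ± 0.21 (adjusted p = 1.7e-05) and -1.13 ± 0.19 (adjusted p = 2.9e-04). The higher members were Vim, whose level differed by 0.07 in the DA and -0.81 in the aorta (interaction 0.88 ± 0.12, adjusted p = 2.6e-05), and Cav1, Myh10 and Csrp2 (interactions 0.80, 0.65 and 0.60). For Acta2 the interaction of -0.38 ± 0.16 was not called (adjusted p = 0.233). Calls of Myl9, Synm and Actn4 were held in 6, 9 and 12 of those 23 fits, with adjusted p up to 0.0204, 0.0155 and 0.0155, and those of Cav1 and Csrp2 in 18 and 20. Without the pooled libraries 11 members were called lower and 2 higher, and Myl9, Tagln, Synm, Actn4, Csrp1, Csrp2 and Cav1 were not called (adjusted p from just over 0.01 for Csrp1 to 0.0373 for Myl9). Over all 17369 genes the interaction then called 200 lower and 98 higher. Some embryos gave both vessels, and this fit treats their libraries as independent.

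**Figure D2:**
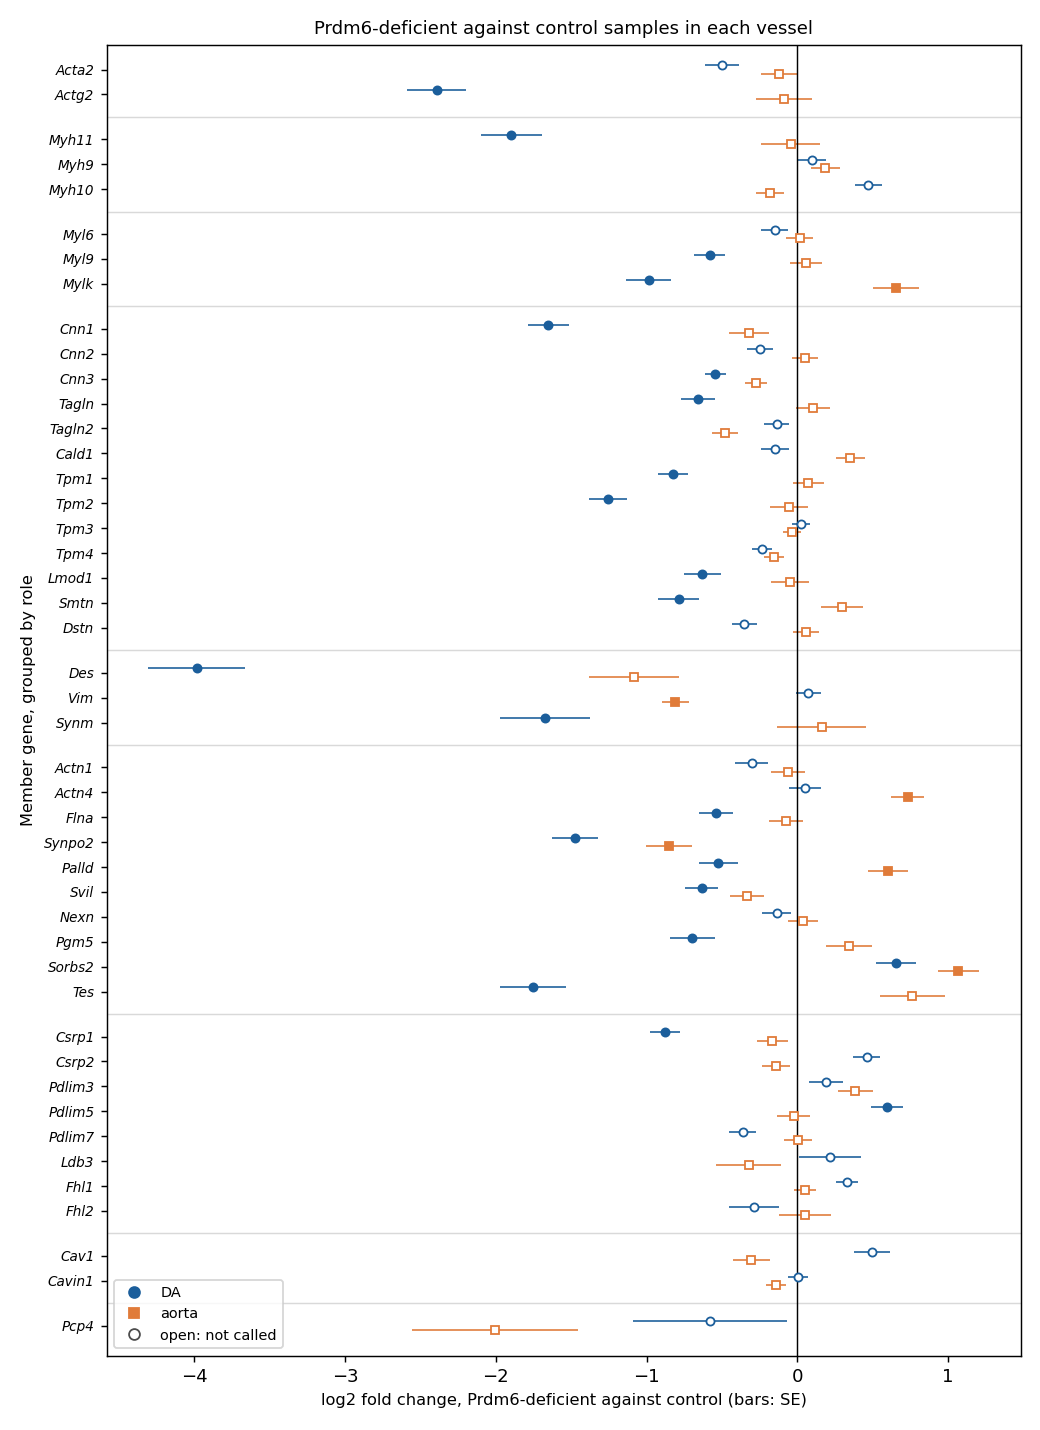
Log2 difference (± SE) between Prdm6-deficient and control samples for the 45 members ordered by role, in the DA (circles) and the aorta (squares); filled symbols are called changed and open symbols are not. In the DA, 20 members are called lower, down to -3.98 for Des, and in the aorta Mylk, Actn4, Palld and Sorbs2 are called higher and Vim and Synpo2 lower.

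Control DA was next compared with control aorta, which shares its 7 control DA libraries with the test of Prdm6 loss in the DA. Of the 45 members, 19 were higher and 4 lower in control DA, compared with 3.16% and 2.19% of all genes (5.36% in either direction, and 6.99% at any fold). The groups did not overlap in 21 members (5.36% of all genes), and the median log2 difference was 0.43. The members higher in the DA included Des (13.8-fold, 32.5 ± 12.4 CPM in control aorta), Synm, Tes, Palld, Pdlim3 and Fhl2. Tes was at 13.4, 16.1, 16, 29.6, 13.5 and 13.2 CPM in control aorta, where replicate 4 stood above the rest, and at 3.27-fold that level in control DA (log2 difference 1.71 ± 0.20, adjusted p = 8.6e-07). Synm was 3.58-fold and Palld 2.3-fold higher in control DA (adjusted p = 3.1e-05 and 1.1e-07). Pdlim3, whose product binds actinin, was at 455 ± 92.4 CPM in the DA of controls and 265 ± 37.6 CPM in control aorta (log2 difference 0.78 ± 0.11, adjusted p = 1.0e-05). Fhl2 had a log2 difference of 0.74 ± 0.16 (adjusted p = 0.00190).

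The other members called higher in control DA were Actg2, Myh11, Cnn1, Mylk, Tpm2, Tpm1, Synpo2, Smtn, Csrp1, Myl9, Tagln, Svil and Acta2, with log2 differences from 0.53 (Acta2) to 2.58 (Actg2). The members lower in control DA were Myh10 (log2 difference -0.84 ± 0.08, adjusted p = 4.4e-08), Cav1 (-0.67 ± 0.11, adjusted p = 1.4e-04), Pdlim5 (-0.62 ± 0.10, adjusted p = 8.6e-05) and Vim (-0.51 ± 0.08, adjusted p = 3.4e-05). Cnn3, Cald1, Flna, Dstn, Pdlim7 and Cnn2 passed the adjusted p with positive log2 differences of 0.34 to 0.43, short of the fold limit, and Csrp2 with -0.34. Sorbs2, which rose in both vessels without Prdm6, had a log2 difference of 0.06 between the control vessels (adjusted p = 0.864).

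Markers of other cells differed between the control vessels as well. Of the muscle markers, 1 of 11 cardiac (Tnnc1, log2 difference 2.86, adjusted p = 8.3e-07) and 2 of 8 skeletal (Tnnt3, log2 difference 3.03, adjusted p = 2.9e-07, and Ckm, log2 difference 2.35, adjusted p = 2.0e-04) were called higher in control DA, where the cardiac sums were 118 to 1581 CPM against 63.4 to 242 in control aorta and the skeletal sums 49.4 to 248 against 8.29 to 28.8. Of 6 melanocyte markers 4 were called higher, among them Dct (log2 difference 5.28, adjusted p = 3.1e-05), with sums of 32.2 to 229 CPM against 2.17 to 14.8. Of the 6 markers of pericytes and SMCs, Rgs5 (log2 difference 2.27, adjusted p = 4.6e-09) and Mcam (log2 difference 1.19, adjusted p = 5.0e-09) were called higher, and Notch3 (log2 difference -1.02, adjusted p = 4.5e-07) and Itga8 (log2 difference -0.79, adjusted p = 9.2e-05) lower. The fibroblast marker Dpt, the cartilage marker Acan and the neuronal marker Elavl4 were called lower, with log2 differences of -1.05, -1.80 and -1.72. No other marker of these lists was called. The cartilage markers Col2a1 and Col9a1 had log2 differences of 1.98 and 0.66, and the other fibroblast markers of -0.51 (Pdgfra) to 0.21 (Dcn). Without the 2 DA libraries highest in cardiac markers, 19 members were called higher and 3 lower in control DA, with Vim short of the fold limit. The part of the other cells in the result was not tested.

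For 6 control embryos the labels gave both vessels, so that the DA could be set against the aorta of the same animal. Des was higher in the DA in 6 of 6 embryos, with log2 ratios of 2.62 to 4.91, and so were Actg2 (1.73 to 3.57), Myh11 (1.03 to 3.02), Cnn1 (1.08 to 2.28), Tes (0.62 to 2.38) and Palld (0.79 to 1.78). Synm was higher in 6 of 6 as well, but over a wide range of 0.27 to 2.35. Acta2 was higher in 5 of 6 embryos (-0.22 to 1.25). Myh10 was lower in the DA in every embryo (-1.12 to -0.66), as were Cav1 (-1.11 to -0.16), Vim (-0.97 to -0.33) and Pdlim5 (-1.06 to -0.24). With the embryo as a block in edgeR's fit, 16 members were called higher and 3 lower, against 406 and 268 of all 14853 genes. Acta2 (adjusted p = 0.0876) and Fhl2 (adjusted p = 0.0148) were no longer called in that fit, and Svil and Vim no longer passed the fold limit.

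Without Prdm6 the difference between the vessels was not that of the controls for the 20 members called by the interaction, which is also the test of that change. Between Prdm6-deficient DA and Prdm6-deficient aorta, edgeR called 0 of the 45 members, against 0.267% of all genes. At an unadjusted p under 0.05 there were 12 members (10% of all genes), and DESeq2 called Pdlim3 alone, higher in the DA. Values did not overlap in 7 members (3.52% of all genes). The log2 differences ran from -0.81 (Tes) to 0.89 (Des), with a median of 0.05. Myh11 was at 538 ± 116 CPM (SD, n = 5) in the DA without Prdm6, against 520.0 ± 69.8 CPM (SD, n = 5) in Prdm6-deficient aorta, a log2 difference of 0.05 ± 0.20. Tpm1 and Tpm2 had log2 differences of 0.01 ± 0.11 and 0.05 ± 0.13, Acta2 of 0.15 ± 0.12, and Actg2 of 0.28 ± 0.19. Des was at 28.4 ± 15.9 and 15.3 ± 3.46 CPM (log2 difference 0.89 ± 0.31, adjusted p = 0.229). Of these libraries, 2 embryos gave both vessels, and the pool of Prdm6-deficient DA replicate 2 shared its embryos with aorta replicates 1 and 2, which the fit does not take into account. Within the 2 embryos the log2 ratios of DA over aorta were 0.65 and 0.76 for Pdlim3, -1.25 and -0.51 for Tes, 0.64 and 1.61 for Des, -0.30 and 0.65 for Myh11 and 0.11 and 0.29 for Actg2. Not being called does not show that the levels were equal.

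Set against control aorta, Prdm6-deficient DA was higher in 3 members and lower in 0, compared with 1.4% and 0.613% of all genes (2.02% in either direction, and 2.27% at any fold), and 5 members did not overlap (5.28% of all genes). The median log2 difference was -0.01. The members called higher were Pdlim3 (519 ± 35 CPM against 265 ± 37.6, log2 difference 0.97 ± 0.12, adjusted p = 4.3e-06), Palld (log2 difference 0.68 ± 0.13, adjusted p = 0.00203) and Sorbs2 (0.72 ± 0.14, adjusted p = 0.00160). Vim passed the adjusted p alone (log2 difference -0.44 ± 0.09, adjusted p = 0.00203), and Synpo2 did not pass it (-0.58 ± 0.15, adjusted p = 0.0218). Myh11, Tpm2, Acta2 and Smtn had log2 differences of 0.01, -0.01, 0.03 and 0.05, each within 0.20 (SE, the largest of the 4, for Myh11) of 0. Pdlim3 was thus called higher in the DA than in control aorta with and without Prdm6, and its own difference between Prdm6-deficient and control DA was 0.19 ± 0.11 (adjusted p = 0.338).

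**Figure D3:**
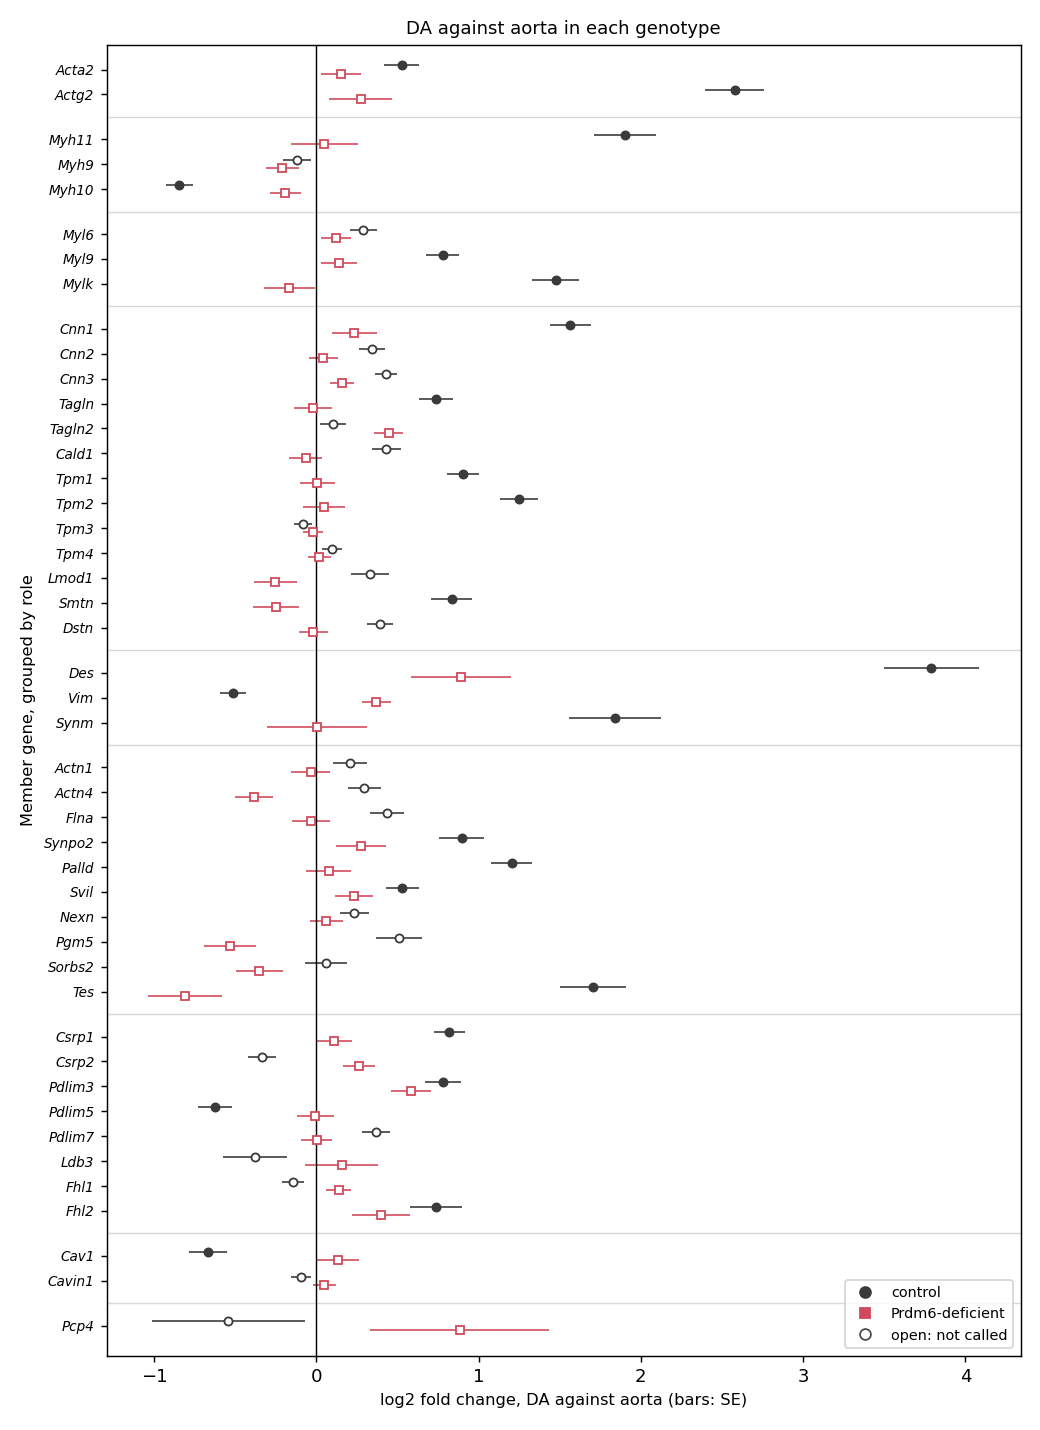
Log2 difference between DA and aorta for the 45 members, in control embryos and in Prdm6-deficient embryos; filled symbols are called, bars are SE, and points right of 0 are higher in the DA. In controls the values run from -0.84 (Myh10) to 3.79 (Des), and without Prdm6 from -0.81 (Tes) to 0.89 (Des).

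Ratios of family members within a library do not depend on how libraries are scaled, and 10 were compared, each setting a member over a relative of its family. Counts per gene merge all transcript forms of a gene, so that a ratio is not of muscle to nonmuscle forms. Myh11 over Myh10 was 3.05 in control DA, 0.596 in Prdm6-deficient DA, 0.448 in control aorta and 0.512 in Prdm6-deficient aorta, as ratios of counts at the mean of the logs. Smooth muscle myosin reads were thus above Myh10 reads in control DA alone. Actg2 over Acta2 was 0.20, 0.0547, 0.0476 and 0.0499 in the same order, and Des over Vim 0.145, 0.00811, 0.00732 and 0.00621. Cnn1 over Cnn2 was 2.17 in control DA and 0.838, 0.947 and 0.733 in the other groups.

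By exact 2-sided permutation tests, adjusted over 50 tests, all 10 ratios were lower in Prdm6-deficient than in control DA (log2 differences -4.16 to -0.42), and all 10 were higher in the DA than in the aorta of controls (0.48 to 4.31). The smallest p that these group sizes allow is 0.00126 in the former and 5.8e-04 in the latter. For Myh11 over Myh10 the log2 difference was -2.36 between Prdm6-deficient and control DA (exact permutation test, adjusted p = 0.00371), and for Myl9 over Myl6 it was -0.42 (exact permutation test, adjusted p = 0.00902). In the aorta 2 ratios differed between Prdm6-deficient and control samples, Cnn1 over Cnn2 lower (log2 difference -0.37) and Tagln over Tagln2 higher (0.58) (exact permutation tests, adjusted p = 0.0148 and 0.00601). The same 2 ratios differed between the vessels without Prdm6, Cnn1 over Cnn2 by 0.19 and Tagln over Tagln2 by -0.47 (exact permutation tests, adjusted p = 0.0173 and 0.0331, DA minus aorta). Between Prdm6-deficient DA and control aorta 0 of the 10 ratios differed at an adjusted p below 0.05, with log2 differences of -0.18 to 0.41 and the smallest p allowed at 0.00216.

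**Figure D4:**
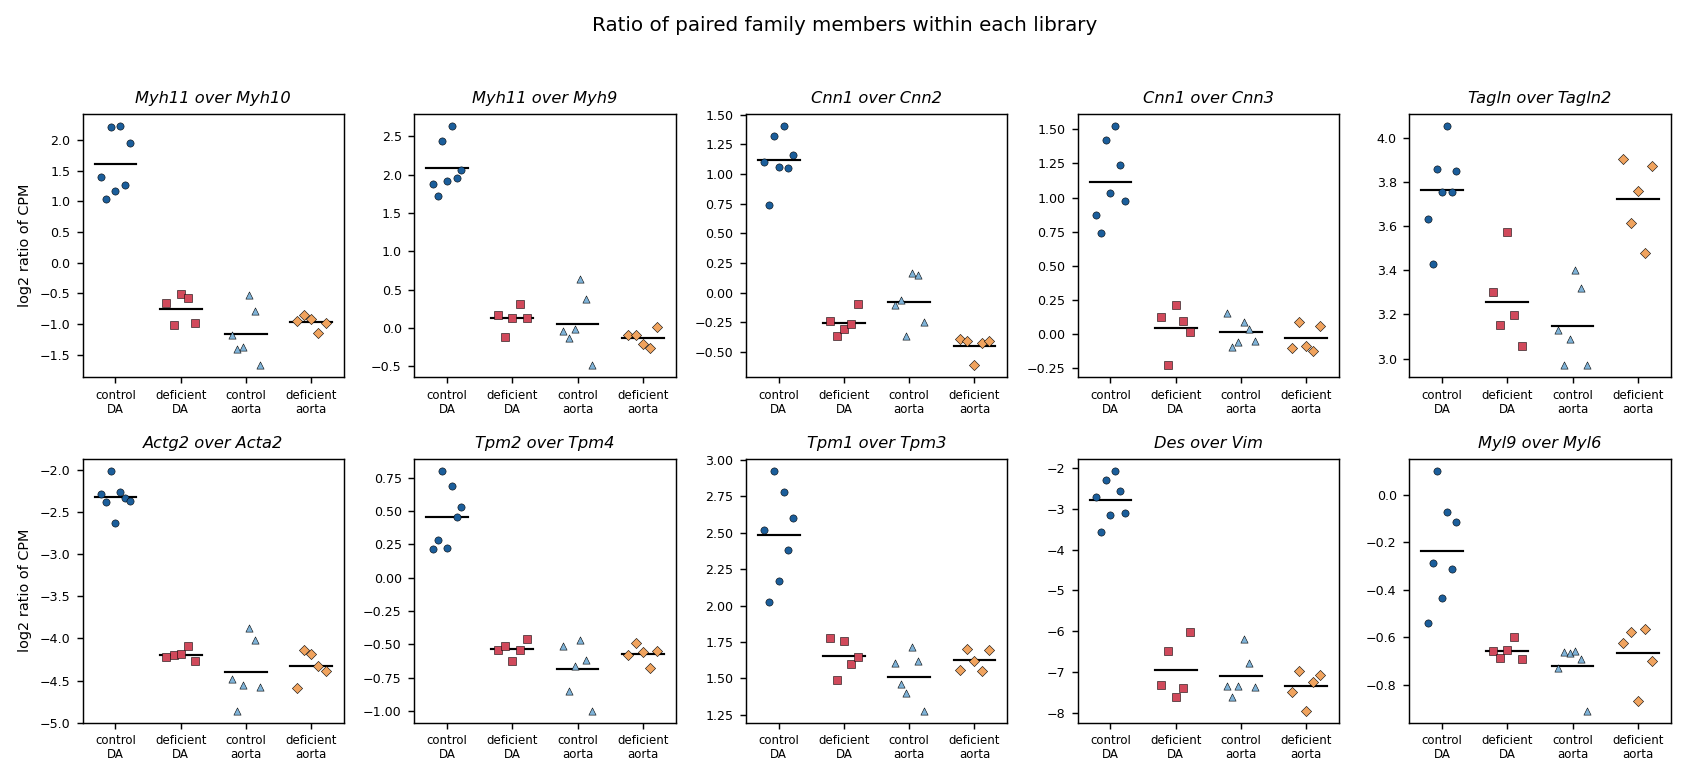
Log2 ratio of the 10 pairs of family members in each library (points) by group, with a black line at each group mean. The mean of control DA stands above those of the other groups for each pair, for example at a mean log2 ratio of 1.61 for Myh11 over Myh10 against -0.75 in Prdm6-deficient DA and -1.16 in control aorta.

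Of 48 further genes of the same families and machinery, 44 could be tested. In Prdm6-deficient DA 9 of them fell and 1 rose, against 2.82% and 2.61% of all genes. Regulators of the phosphatase that opposes Mylk were among them, and its catalytic subunit was not in the list. Ppp1r14a, which encodes the phosphatase inhibitor CPI-17, fell by 1.06 on the log2 scale (212 ± 45.3 to 101 ± 7.95 CPM, adjusted p = 9.6e-07). The genes of the targeting subunits, Ppp1r12a and Ppp1r12b, fell by 0.59 and 0.50 (adjusted p = 6.9e-04 and 9.7e-04). Mcam, an adhesion molecule of SMCs, fell by 0.98 (adjusted p = 3.0e-07), and the muscle filamin gene Flnc by 0.87 (adjusted p = 6.8e-06). Also among those that fell were Cfl2, the muscle cofilin (-0.61), the vinculin gene Vcl (-0.59) and Fhl3 (-0.57). Pdlim2 rose, from 37.9 ± 9.46 to 85.1 ± 5.91 CPM (log2 difference 1.17 ± 0.14, adjusted p = 8.3e-07). The cytoplasmic actin genes Actb and Actg1 were not called, with log2 differences of -0.30 and -0.17 (adjusted p = 0.0537 and 0.150). In the aorta 1 rose (Pfn2, 0.66) and 2 fell (Flnc, -0.79, and the integrin gene Itga8, -1.11), against 1.63% and 0.826% of all genes. Control DA was higher than control aorta in 7 and lower in 3, against 3.16% and 2.19%.

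Of the factors known to act on CArG boxes, Srf was at 90.4 ± 16.3 CPM (SD, n = 7) in the DA of controls, and 63.7 ± 3.16 CPM (SD, n = 5) in the DA without Prdm6, and fell by 0.51 on the log2 scale (adjusted p = 0.00625). Myocd, which encodes the SMC cofactor myocardin, had 28.8 ± 6.66 and 18.5 ± 6.22 CPM, a log2 difference of -0.64 ± 0.18 that was not called (adjusted p = 0.0167). The genes of the myocardin-related factors, Mrtfa and Mrtfb, had log2 differences of 0.15 and 0.12 and were not called. In the aorta none of the 4 was called, with log2 differences of -0.24 (Myocd) to 0.16 (Mrtfb).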

How the data were processed

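RNA-Seq libraries were made from microdissected DA and ascending aorta, with less total RNA from the DA than from the aorta. The authors trimmed and filtered reads (FASTX-Toolkit, TagDust), aligned them to mm10 with STAR and estimated expected counts per gene with RSEM on a GENCODE annotation, per the labels and the study's methods. The deposited table held those expected counts for 23 libraries, not normalized. Strand use in counting is not given in the sources used here. Replicate 4 of the Prdm6-deficient DA group is not analysed here, and 1 gene outside the 45 members is counted but not reported by name.

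Expected counts were rounded, filtered (filterByExpr), scaled (TMM) and fitted in edgeR 4.0.16 (R 4.3.3; quasi-likelihood test, 1 mean per vessel and genotype, all 4 groups). Genes were called at Benjamini-Hochberg adjusted p below 0.01 and a log2 difference beyond 0.5, with no fold limit for the interaction. Ratios were tested by exact permutation, adjusted over 50 tests. Alternatives were DESeq2 1.42.0, other scalings and filters, subsets of libraries and block terms. Leaving out the libraries highest in cardiac or erythroid markers was chosen after seeing the data. Embryo numbers in the labels fall into 2 runs, which were treated as possible batches. Replicate numbers were not taken as pairs, because by the labels only some same-numbered libraries share an embryo. These are control DA and aorta replicates 1 and 4, and Prdm6-deficient replicate 2 in part. Same-numbered deviations correlated at -0.05 to 0.17 and same-embryo ones at -0.01 to 0.10, so that this correlation cannot decide on pairing. The scripts were tested on simulated data, with recovery judged on genes over 10 CPM after the limit set for all genes had been missed. Libraries of a group are separate embryos per the labels.

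Members, roles, relatives and markers were chosen with earlier results of these data known, so that their counts are descriptions. Each member called in Prdm6-deficient DA was named, the 12 with the largest change by library, and members called elsewhere were named with values. Members and promoters were matched through GENCODE M21 (mm10) and RefSeq GRCm38.p6. Depth of 15163931 to 22610501 counts limits precision for scarce members such as Pcp4 and Synm.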

Additional observations from a re-analysis of the deposited data

Results flagged for a closer look

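In each of the 4 groups the library farthest from the rest was looked at for all 45 members, 180 groups of values in all, and 8 stood apart by Dixon's test, where chance gives about 9. In Prdm6-deficient aorta these were Tpm4 in replicate 1 (924 CPM, nearest library 966), Palld in replicate 1 (118, nearest 99) and Pgm5 in replicate 3 (109, nearest 144). In control aorta they were Dstn in replicate 6 (719.9, nearest 833), Tes in replicate 4 (29.6, nearest 16.1) and Cavin1 in replicate 1 (1253, nearest 1050.1). In Prdm6-deficient DA, Csrp2 in replicate 5 was at 961 CPM (nearest 846), and in control DA, Fhl1 in replicate 6 was at 822 CPM (nearest 683). Without control aorta replicate 4, the log2 difference of Tes between Prdm6-deficient and control aorta was 0.995 (edgeR adjusted p = 0.00151) and was called. That library had the highest haemoglobin level among the control aorta libraries, 136480.0 CPM over 5 erythroid markers, and its part in the value was not tested.

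The difference between Prdm6-deficient and control samples was unlike in DA and aorta for 20 members by edgeR's interaction term. The term (log2, DA minus aorta) was -2.30 for Actg2, -1.85 for Myh11, -0.64 for Myl9, -1.64 for Mylk, -1.33 for Cnn1, -0.76 for Tagln, -0.90 for Tpm1, -1.20 for Tpm2 and -1.08 for Smtn among the genes of actomyosin and thin filaments. It was -2.90 for Des, -1.83 for Synm, -0.68 for Actn4, -1.13 for Palld, -1.04 for Pgm5, -2.51 for Tes and -0.71 for Csrp1 among those of intermediate filaments, crosslinkers and LIM proteins. The term was above 0 for Myh10 (0.65), Vim (0.88), Csrp2 (0.60) and Cav1 (0.80).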

How the results depend on the processing

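Directions were stable: each member called in any of the 6 comparisons kept its sign under every alternative that gave it a value. Leaving out 1 library in turn (23 fits) gave 18 to 21 members lower and 2 to 5 higher in Prdm6-deficient DA, 2 to 5 higher and 2 to 3 lower in Prdm6-deficient aorta, 17 to 20 higher and 3 to 4 lower in control DA than control aorta, 0 to 1 higher between the vessels without Prdm6, and 13 to 17 lower and 2 to 5 higher by the interaction, and 1 to 2 ratios that differed between those vessels. The 5 higher in Prdm6-deficient DA came without control DA replicate 6, which added Myh10, Csrp2 and Cav1. The 2 higher by the interaction came without Prdm6-deficient aorta replicate 2 or 4, and the 1 ratio without Prdm6-deficient DA replicate 6 or 7. Without control DA replicate 1 or 6, Pdlim3 was called higher in the DA of deficient embryos.

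Within the first run of embryo numbers, which holds 2 control DA, 3 deficient DA, 1 control aorta and 2 deficient aorta libraries, the comparisons with control aorta and the interaction rest on that lone library, assumed to vary like the others, so that their counts say nothing of stability. There 7 members were lower and 1 higher in Prdm6-deficient DA, 0 higher and 0 lower in Prdm6-deficient aorta, 2 higher and 0 lower in control DA than control aorta, 0 higher in Prdm6-deficient DA than control aorta, and 0 lower and 0 higher by the interaction. Within the second run, 0 were higher in Prdm6-deficient DA, 2 higher in Prdm6-deficient aorta, 1 higher in Prdm6-deficient DA than control aorta, and 9 lower and 1 higher by the interaction. Over all 17701 genes of that fit the counts were 175, 153, 61, 126 and 40 in the same order. DESeq2 and the fit of only the 2 groups compared each called Pdlim3 higher between the vessels without Prdm6 and Synpo2 lower in Prdm6-deficient DA than control aorta (1 each), and without the Wnt1Cre controls Synpo2 was called there too. With only 2 groups in the fit, 4 members were lower in Prdm6-deficient aorta. Without the Wnt1Cre controls, 2 were higher there. The interaction called 2 higher with library size alone. Without the pooled libraries it called 2 higher and 11 lower, and 17 members were lower in Prdm6-deficient DA.

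The replicate numbers pair only some libraries of the same embryo. With the replicate block 19 members were lower and 2 higher in Prdm6-deficient DA, 2 higher in Prdm6-deficient aorta, 19 higher and 4 lower in control DA, 0 called between the vessels without Prdm6, 2 higher in Prdm6-deficient DA than control aorta, and 14 lower and 3 higher by the interaction. Over all 16463 genes that fit called 405 lower and 375 higher in Prdm6-deficient DA, and 222 lower and 115 higher by the interaction. At most 1 sample of a pair of groups correlated best with its own number, which cannot decide on pairing. Depth limits what can be said of Pcp4 and Synm.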
